A study of Homo sapiens with 12 samples.

Results

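The zinc-dependent histone deacetylases (HDACs) remove acetyl groups from histones and other proteins, and this account follows the transcripts of 10 of their genes in the K-562 line under Si-711. The 10 genes, HDAC1 to HDAC8, HDAC10 and HDAC11, were found by matching the Ensembl gene identifiers of the table to these symbols, which took 10 of its 51112 identifiers. By the names the field gives them, HDAC1, HDAC2, HDAC3 and HDAC8 are class I, HDAC4, HDAC5 and HDAC7 class IIa, HDAC6 and HDAC10 class IIb and HDAC11 class IV. The K-562 line is an established culture from a human chronic myeloid leukemia with the BCR-ABL1 fusion, and Si-711 is described by the submitters as an inhibitor of the sirtuins SIRT1/2. The 4 groups, each of 3 biological replicates, were untreated cells and those harvested after 8, 24 or 48 h with Si-711 at 5 µM. All groups grew in the same serum-supplemented RPMI1640 medium and were in exponential growth at the start. Vehicle-treated or time-matched untreated libraries were not analysed here, so exposure to Si-711 and time in culture cannot be told apart.

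Class I, II and IV enzymes hold a zinc ion in the active site, whereas the sirtuins, the described target of Si-711, form the separate class III and use NAD+ as a cosubstrate. HDAC1 and HDAC2 are paralogs that work inside the SIN3, NuRD, CoREST and MiDAC corepressor complexes, and HDAC3 works inside the NCOR and SMRT complexes. Class IIa proteins have weak catalytic activity, bind MEF2 transcription factors and move between nucleus and cytoplasm under the control of kinases and 14-3-3 proteins. HDAC6 acts on tubulin and other cytoplasmic proteins, HDAC10 on acetylated polyamines, and HDAC11 removes long fatty acyl groups.

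The promoter windows of 4 members are shown because these members went opposite ways: HDAC1 and HDAC2 were the genes of the family that fell, and HDAC6 and HDAC10, both of class IIb, rose. The sequences are from RefSeq on GRCh38.p14, 250 bases before to 50 bases after the start of transcription, written 5′ to 3′ on the strand of the gene. They lie at chr1:32291833-32292132 on the plus strand for HDAC1, chr6:113971099-113971398 on the minus strand for HDAC2, chrX:48801699-48801998 on the plus strand for HDAC6 and chr22:50251216-50251515 on the minus strand for HDAC10. Capitals mark the GC box GGGCGG and the CCAAT box, each on either strand.
HDAC1: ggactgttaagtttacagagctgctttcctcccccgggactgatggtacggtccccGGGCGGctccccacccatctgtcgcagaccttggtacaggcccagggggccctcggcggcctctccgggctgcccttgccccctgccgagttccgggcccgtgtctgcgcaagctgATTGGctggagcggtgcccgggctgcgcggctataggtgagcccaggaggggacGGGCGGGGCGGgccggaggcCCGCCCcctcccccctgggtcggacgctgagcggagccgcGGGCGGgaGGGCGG
HDAC2: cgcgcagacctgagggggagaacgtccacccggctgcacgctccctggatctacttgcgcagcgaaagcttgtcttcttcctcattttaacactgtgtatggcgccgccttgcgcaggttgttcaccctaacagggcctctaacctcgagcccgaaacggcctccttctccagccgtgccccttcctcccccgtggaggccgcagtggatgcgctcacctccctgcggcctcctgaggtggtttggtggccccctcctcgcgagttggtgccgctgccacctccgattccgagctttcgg
HDAC6: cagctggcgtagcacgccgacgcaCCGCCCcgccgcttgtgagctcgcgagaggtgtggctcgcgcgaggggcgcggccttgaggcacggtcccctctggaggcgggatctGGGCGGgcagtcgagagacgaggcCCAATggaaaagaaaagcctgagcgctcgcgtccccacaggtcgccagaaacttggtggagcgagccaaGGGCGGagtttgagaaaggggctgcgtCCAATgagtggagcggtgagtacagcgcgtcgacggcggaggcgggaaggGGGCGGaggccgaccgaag
HDAC10: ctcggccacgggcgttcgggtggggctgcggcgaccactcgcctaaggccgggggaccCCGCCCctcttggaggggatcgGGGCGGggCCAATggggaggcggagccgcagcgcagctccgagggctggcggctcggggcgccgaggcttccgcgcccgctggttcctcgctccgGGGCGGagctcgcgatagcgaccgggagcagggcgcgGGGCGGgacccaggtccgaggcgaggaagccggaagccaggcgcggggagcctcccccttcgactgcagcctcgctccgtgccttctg

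A window was found for 9 of the 10 members, and where a gene had several (5 for HDAC4 and 3 for HDAC6) the one nearest to the start of its longest protein-coding transcript was used. The GC box GGGCGG, the motif bound by SP/KLF factors, was in 6 of these 9 windows and in 45% of all 35116 windows of 300 bases. HDAC1 held 6 matches, some of them overlapping, HDAC11 held 5, HDAC6 and HDAC10 held 4 each, HDAC3 held 3 and HDAC4 held 1. HDAC2, HDAC7 and HDAC8 held none, so the paralogs HDAC1 and HDAC2 differed in this motif. The CCAAT box was in HDAC1, HDAC6 and HDAC10, 3 of the 9 windows, against 34.6% of all windows. The E-box CACGTG was found in HDAC4 (7.26% of all windows), the ETS-type motif CCGGAAG in HDAC10 (10.3%) and the GATA-type motif AGATAA in HDAC7 (10.3%). Neither the CRE-type motif TGACGTCA (1.85% of all windows) nor the CEBP-ATF-type motif TGATGCAA (0.866%) was in any of the 9. The windows held 9 CG dinucleotides in HDAC8 and 40 in HDAC4 and HDAC10, the lowest and highest of the family, against a median of 14 over all windows. All motifs were searched on both strands, and a match is a description of the letters only.

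Polyadenylated RNA was sequenced with strand-specific libraries, and each value is a gene count that the authors normalized with DESeq2. Totals were 27070528 to 37117837 normalized counts per library, from an estimated 24600000 to 40400000 reads. Of the 15424 genes that could be tested, 2001 were higher and 2346 lower at 8 h than in untreated cells, 3530 and 3813 at 24 h, and 4989 and 5218 at 48 h. This split depended on scaling. With equal library totals it was 2887 higher and 1083 lower at 8 h and 4761 and 2657 at 24 h. With median centring it was 1658 and 3230 at 8 h and 2839 and 4772 at 24 h. On the first principal component (46.6% of the variance) replicate 1 at 24 h lay at 20.03, apart from replicates 2 and 3 at -10.1 and -8.65. The share of ribosomal protein mRNAs was 13.6 to 15.3% at 48 h and 7.55 to 8.24% in untreated libraries. All 12 K-562 and erythroid markers passed the filter on low values, and their summed level was 334084 to 588666 normalized counts in untreated cells, between 89354 and 112344 at 8 h, between 98920 and 106199 at 24 h and between 136879 and 139131 at 48 h. Of these markers 0 were called higher and 8 lower at 8 h, 0 and 8 at 24 h, and 1 and 9 at 48 h. The sum in untreated cells was mostly that of 4 globin genes. Among them HBZ averaged 8189 at 48 h and 128278 in untreated cells. The erythroid regulator GATA1 averaged 8566 at 48 h and 5992 in untreated cells, and KLF1 averaged 1510 at 48 h and 7389 in untreated cells. Of 11 granulocyte and monocyte markers, 4 passed the filter and all 4 (LYZ, CSF3R, ITGAM and SPI1) were higher at each time, with sums of 739 to 1391, 4313 to 5562, 4344 to 5571 and 5630 to 6496 in the same order, while ELANE and S100A8 were at 0. Of the T and NK cell markers 3 of 8 passed, with CD5 and CD8A at 0. Of these, 3 were higher at 8 h and 2 at 24 and at 48 h. Their sums were 166 to 338, 681 to 991, 389 to 656 and 488 to 579 in the order untreated, 8, 24 and 48 h. Of the B cell markers 2 of 5 passed, with MS4A1 at 0, and 1 was higher at 8 and at 48 h, although the submitters call the cells lymphoblasts. Of the fibroblast and epithelial markers 6 of 8 passed, with LUM at 0. The epithelial ones were not low: KRT8, KRT18 and EPCAM averaged 15779, 11476 and 3088 normalized counts in untreated cells. Untreated libraries had list sums between 27186 and 36908. Libraries of 8 and 48 h fell inside that range, and those of 24 h (22112 to 24707) fell below it. Calls in this list were 1 lower after 8 h, 1 lower after 24 h and 1 higher after 48 h. The part of these shifts in the results for the HDAC genes was not tested, and in bulk RNA fewer cells of a type and less RNA per cell cannot be told apart.

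All 10 HDAC genes passed the filter of at least 10 normalized counts in at least 3 libraries. In cells after 48 h in Si-711, HDAC1 and HDAC2 fell, HDAC3, HDAC4, HDAC5, HDAC6, HDAC7 and HDAC10 rose, and HDAC8 and HDAC11 did not pass the test. The rise was largest for HDAC6, 3.26-fold, and for HDAC5, 2.30-fold. By the moderated F-test of limma, 8 of the 10 genes varied over the 4 groups at an adjusted p under 0.05, with 75.3% of all genes tested called the same way. Folds below are on the log2(normalized count + 1) scale, with limma's standard error and the p adjusted by Benjamini-Hochberg over all 15424 genes. The comparisons with untreated cells share the same 3 untreated libraries.

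**Figure D1:**
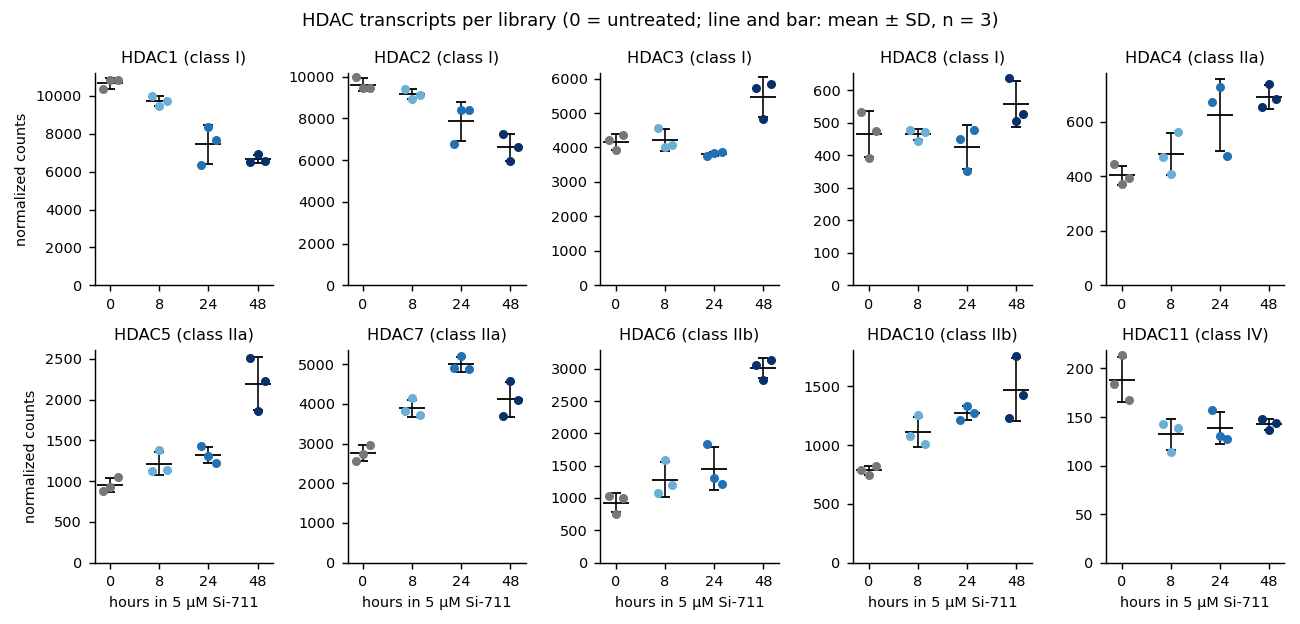
Normalized counts of the 10 HDAC genes in each of the 12 libraries (points), by hours in 5 µM Si-711, where 0 stands for untreated cells; horizontal lines are means and bars are SD of 3 replicates. The means of HDAC1 and HDAC2 are lowest at 48 h, while the lowest single library of HDAC1 is replicate 1 of 24 h at 6330. HDAC6 stands at 2832 to 3131 at 48 h and at or below 1836 in all earlier libraries, and HDAC7 is highest at 24 h.

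Among the class I genes, the paralogs HDAC1 and HDAC2 fell while HDAC3 rose at 48 h. HDAC1 (chromosome 1, 32292086 to 32333635, GRCh38) had 10340, 10854 and 10819 normalized counts in untreated cells, 9973, 9436 and 9703 at 8 h, 6330, 8343 and 7679 at 24 h, and 6494, 6926 and 6569 at 48 h. Every library from treated cells lay below every untreated library at each time. The log2 change of HDAC1 against untreated cells was -0.14 ± 0.09 at 8 h (adjusted p = 0.279), -0.53 ± 0.09 at 24 h (adjusted p = 0.000311) and -0.68 ± 0.09 at 48 h (adjusted p = 1.48e-05, limma). At 8 h the sign depended on scaling, with 0.03 under equal totals and 0.08 under quantile normalization. Its 24 h call was lost with quantile normalization (-0.23, adjusted p = 0.0595, limma).

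HDAC2, the paralog of HDAC1 (chromosome 6, 113933028 to 114011308), had 9960, 9448 and 9443 normalized counts in untreated cells, 9402, 8936 and 9111 at 8 h, 6784, 8403 and 8408 at 24 h, and 7267, 5934 and 6618 at 48 h. The treated libraries again lay below the untreated ones at each time, by a margin at 8 h that was small beside the spread. With equal totals and quantile normalization the 8 h change was positive, 0.09 and 0.13. The log2 change of HDAC2 was -0.07 ± 0.09 at 8 h (adjusted p = 0.619), -0.30 ± 0.09 at 24 h (adjusted p = 0.0189) and -0.55 ± 0.09 at 48 h (adjusted p = 0.000171, limma). The 24 h call rested on single libraries and on the scaling: it was lost without untreated replicate 1 (-0.27, adjusted p = 0.0653, limma) and without replicate 1 of the 24 h cells (-0.19, adjusted p = 0.0803, limma), and with equal totals (-0.11, adjusted p = 0.317), and with quantile normalization the change was 0.01, of the opposite sign (adjusted p = 0.962).

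HDAC3, the catalytic subunit of the NCOR and SMRT complexes (chromosome 5, 141620876 to 141636870), had 4231, 3914 and 4367 normalized counts in untreated cells, 4580, 4002 and 4068 at 8 h, 3744, 3842 and 3868 at 24 h, and 5737, 4813 and 5856 at 48 h. The 48 h libraries stood above all 9 others, and the 8 h libraries overlapped the untreated ones. HDAC3 rose by 0.39 ± 0.09 on the log2 scale at 48 h (1.31-fold, adjusted p = 0.00156, limma), and its changes were 0.01 at 8 h (adjusted p = 0.928) and -0.13 at 24 h (adjusted p = 0.26). At 24 h it was called lower with median centring (-0.26, adjusted p = 0.0347, limma), and its sign turned with equal totals (0.06) and quantile normalization (0.14).

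HDAC8, which deacetylates the cohesin subunit SMC3 (chromosome X, 72329516 to 72573199), had 532, 392 and 473 normalized counts in untreated cells, 478, 445 and 470 at 8 h, 449, 350 and 477 at 24 h, and 638, 505 and 526 at 48 h. The groups overlapped the untreated libraries at each time. The log2 change at 48 h was 0.26 with a 95% interval of -0.08 to 0.60 (adjusted p = 0.162, limma), so a difference of either sign, or a rise of up to about 0.60, was within the error.

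The 3 class IIa genes were higher at 24 and 48 h than in untreated cells. HDAC4 (chromosome 2, 239048168 to 239401654), the family's classical MEF2 corepressor, had 443, 373 and 392 normalized counts in untreated cells, 469, 410 and 561.9 at 8 h, 673, 726 and 473 at 24 h, and 653, 737 and 681 at 48 h. The 8 h libraries overlapped the untreated ones, and those of 24 and 48 h lay above them. HDAC4 rose by 0.61 ± 0.17 on the log2 scale at 24 h (adjusted p = 0.00905) and by 0.78 ± 0.17 at 48 h (adjusted p = 0.0011, limma), after 0.24 ± 0.17 at 8 h (adjusted p = 0.308). The 24 h call was lost with quantile normalization (0.46, adjusted p = 0.0527, limma).

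HDAC4-AS1, a transcript antisense to HDAC4, had 11.5, 6.42 and 9.71 normalized counts in untreated cells, 29.7, 18.2 and 26.0 at 8 h, 29.8, 33.7 and 43.9 at 24 h, and 42.2, 28.6 and 35.2 at 48 h. It rose at each time, by 1.34, 1.87 and 1.85 on the log2 scale (adjusted p = 0.0195, 0.0013 and 0.000777, limma). The sources used here do not give whether counting used the strand, so reads of HDAC4 and HDAC4-AS1 could have been divided between them; the antisense level was below that of HDAC4 in every library.

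HDAC5, a class IIa protein also held in the cytoplasm by 14-3-3 binding (chromosome 17, 44076746 to 44123702), had 881, 927 and 1049 normalized counts in untreated cells, 1128, 1377 and 1133 at 8 h, 1427, 1311 and 1222 at 24 h, and 2508, 1863 and 2223 at 48 h. Every treated library lay above every untreated one, and the 48 h libraries lay above all others. The log2 change of HDAC5 was 0.35 ± 0.13 at 8 h (adjusted p = 0.0556), 0.47 ± 0.13 at 24 h (adjusted p = 0.0072) and 1.20 ± 0.13 at 48 h (adjusted p = 1.79e-06, limma). The 24 h call was lost with median centring (0.33, adjusted p = 0.0515), and the 8 h change was called with equal totals (0.51, adjusted p = 0.0106) and without untreated replicate 3 (0.42, adjusted p = 0.0463, limma).

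HDAC7, known in lymphoid and endothelial cells as a MEF2-binding repressor (chromosome 12, 47782722 to 47833132), had 2565, 2739 and 2968 normalized counts in untreated cells, 3810, 4135 and 3713 at 8 h, 4895, 5214 and 4887 at 24 h, and 3695, 4566 and 4085 at 48 h. All treated libraries lay above the untreated ones, with the highest 3 at 24 h. HDAC7 rose by 0.50 ± 0.09 at 8 h (adjusted p = 0.00144), 0.86 ± 0.09 at 24 h (adjusted p = 7.31e-06) and 0.57 ± 0.09 at 48 h on the log2 scale (adjusted p = 6.95e-05, limma).

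Both class IIb genes rose. HDAC6, the tubulin deacetylase that also binds ubiquitin through a zinc finger (chromosome X, 48801377 to 48824982), had 1037, 754 and 996 normalized counts in untreated cells, 1073, 1582 and 1196 at 8 h, 1836, 1307 and 1217 at 24 h, and 3059, 2832 and 3131 at 48 h. The 8 and 24 h libraries overlapped each other and lay above the untreated ones, and the 48 h libraries stood clear of all others. The log2 change of HDAC6 was 0.46 ± 0.17 at 8 h (adjusted p = 0.0663), 0.64 ± 0.17 at 24 h (adjusted p = 0.00891) and 1.71 ± 0.17 at 48 h (adjusted p = 1.51e-06, limma). At 8 h it was called with equal totals (0.62, adjusted p = 0.0236) and without replicate 1 of the 8 h cells (0.58, adjusted p = 0.0439, limma).

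HDAC10, the polyamine deacetylase (chromosome 22, 50245183 to 50251405), had 789, 744 and 819 normalized counts in untreated cells, 1074, 1257 and 1008 at 8 h, 1217, 1332 and 1268 at 24 h, and 1229, 1754 and 1430 at 48 h. All treated libraries lay above the untreated ones and the 3 treated times overlapped in part. HDAC10 rose by 0.50 ± 0.13 at 8 h (adjusted p = 0.0109), 0.70 ± 0.13 at 24 h (adjusted p = 0.000561) and 0.89 ± 0.13 at 48 h on the log2 scale (adjusted p = 3.31e-05, limma). The 8 h call was lost without replicate 2 of the 8 h cells (0.41, adjusted p = 0.0545, limma).

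HDAC11, the only class IV gene and the one with the fewest normalized counts (chromosome 3, 13479724 to 13506424), had 184, 214 and 168 in untreated cells, 143, 114 and 139 at 8 h, 157, 131 and 127 at 24 h, and 147, 136 and 144 at 48 h. All treated libraries lay below the untreated ones, yet no change passed the test. The log2 change was -0.51 at 8 h (95% interval -0.92 to -0.10, adjusted p = 0.0611), -0.44 at 24 h (-0.86 to -0.03, adjusted p = 0.0707) and -0.40 at 48 h (-0.81 to 0.01, adjusted p = 0.0824, limma). With median centring HDAC11 was called lower at 8 h (-0.60, adjusted p = 0.0324) and 24 h (-0.58, adjusted p = 0.0248), with quantile normalization likewise (-0.74 and -0.79), and with equal totals at 48 h (-0.59, adjusted p = 0.0133, limma). Its values rest on an estimated 107 to 203 reads per library, against an estimated 5360 to 11393 for HDAC1.

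**Figure D2:**
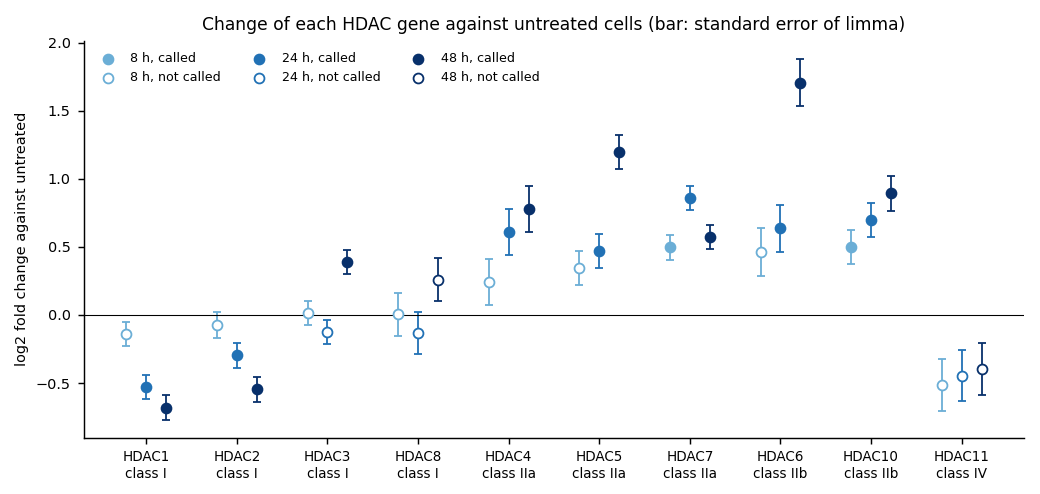
Log2 fold change of each HDAC gene against untreated cells at 8, 24 and 48 h, with bars for limma's standard error; filled points passed an adjusted p of 0.05 and open points did not. HDAC6 reaches 1.71 and HDAC5 1.20 at 48 h, while HDAC1 and HDAC2 reach -0.68 and -0.55.

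The number of HDAC genes called grew with time, as it did among all genes. At 8 h, 2 genes were higher (HDAC7 and HDAC10) and 0 lower, against 13% and 15.2% of all genes tested, and 28.2% were called in either direction. At an unadjusted p under 0.05 by limma, 4 of the HDAC genes (HDAC5, HDAC6, HDAC7 and HDAC10) were higher at 8 h and 1, HDAC11, was lower. The share of all genes at that unadjusted threshold was not computed. At 24 h, 5 were higher (HDAC4, HDAC5, HDAC6, HDAC7 and HDAC10) and 2 lower (HDAC1 and HDAC2), against 22.9% and 24.7% of all genes, and 47.6% were called in either direction. At 48 h, 6 were higher and 2 lower, against 32.3% and 33.8% of all genes, and 66.2% were called in either direction; a share of 8 in 10 is not far from that background. The median log2 change of the 10 genes was 0.13, 0.17 and 0.48 at 8, 24 and 48 h, beside -0.01, 0.02 and -0.05 over all genes tested. Libraries of treated and untreated cells did not overlap for 7 of the 10 genes at 8 h, 9 at 24 h and 9 at 48 h, against 48.5%, 59.1% and 69.5% of all genes tested.

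The times differed among themselves. Set against 8 h, HDAC1 at 24 h was lower by a log2 change of -0.39 (adjusted p = 0.0105, limma). HDAC7 was higher by 0.36 (adjusted p = 0.0146, limma). So 1 gene was higher and 1 lower, against 8.31% and 9.83% of all genes tested (18.1% in either direction). Set against 24 h, the 48 h cells were higher for HDAC3 (0.51, adjusted p = 0.000273), HDAC5 (0.73, adjusted p = 0.000285) and HDAC6 (1.07, adjusted p = 0.000186) and lower for HDAC2 (-0.25, adjusted p = 0.0394) and HDAC7 (-0.29, adjusted p = 0.0159, limma). These were 3 higher and 2 lower, against 25.1% and 27.1% of all genes (52.2% in either direction). At 48 h the libraries of HDAC7 still lay above the untreated ones. With equal totals HDAC3 lost its call between 48 and 24 h (0.14, adjusted p = 0.138, limma). Set against 8 h, 5 genes were higher (HDAC3, HDAC4, HDAC5, HDAC6 and HDAC10) and 2 lower (HDAC1 and HDAC2) at 48 h, against 29.8% and 32.2% of all genes (62% in either direction). With equal totals the calls of HDAC3 (0.02, adjusted p = 0.856), HDAC4 (0.18, adjusted p = 0.394) and HDAC10 (0.04, adjusted p = 0.833) were lost there, and that of HDAC3 also with quantile normalization (0.17, adjusted p = 0.0589, limma). Libraries did not overlap for 4 of the 10 genes between 24 and 8 h, 5 between 48 and 24 h and 7 between 48 and 8 h, against 39.6%, 57.4% and 66% of all genes tested.

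Several of these steps also rested on single libraries. The rise of HDAC7 from 8 to 24 h was lost without replicate 1 (adjusted p = 0.0516) or 3 (adjusted p = 0.0642) of the 8 h cells, and its later fall without replicate 2 of the 24 h cells (adjusted p = 0.0598) or replicate 1 of the 48 h cells (adjusted p = 0.0728, limma). With median centring that fall was -0.09 (adjusted p = 0.364), and the 48 h libraries of HDAC2 overlapped the 24 h ones. The call of HDAC2 between 48 and 24 h was lost with median centring (-0.05, adjusted p = 0.677, limma). It was also lost with only the groups compared in the fit (adjusted p = 0.113) and with no filter on low values (adjusted p = 0.0699, limma).

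Levels per kilobase allow the members to be set side by side, and the order of the upper ones depended on the length used. By the longest protein-coding transcript, HDAC1 and HDAC3 were first and second in untreated cells, with HDAC1 at 51.9% of the summed level. By coding sequence HDAC1 and HDAC2 made up 37.5 and 33.3%, with HDAC3 at 16.5%, and by median transcript length HDAC2 and HDAC1 37.2 and 31.2%, with HDAC3 at 12.7%. With the longest protein-coding transcript of GENCODE as length, HDAC1 had 5024 ± 135 normalized counts per kb in untreated cells, HDAC3 2129 ± 118, HDAC2 974 ± 30.1, HDAC7 673 ± 49.3, HDAC10 292 ± 13.97, HDAC6 221 ± 36.3, HDAC5 179 ± 16.3, HDAC8 81.9 ± 12.4, HDAC11 63.7 ± 7.86 and HDAC4 44.8 ± 4.01 (SD, n = 3). In that order the neighbours HDAC6 and HDAC5, and HDAC8 and HDAC11, overlapped between libraries and the others did not. At 48 h HDAC1 had 3137 ± 109 per kb, HDAC3 2792 ± 292, HDAC7 1005 ± 107, HDAC6 717 ± 37.3, HDAC2 669 ± 67.5, HDAC10 547 ± 98.7, HDAC5 413 ± 60.7, HDAC8 97.8 ± 12.5, HDAC4 76.8 ± 4.75 and HDAC11 48.1 ± 1.91 (SD, n = 3). HDAC6, HDAC2, HDAC10 and HDAC5 each overlapped the next in that order, and the other neighbours did not.

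The place of HDAC2 depends on the length chosen, since its longest transcript has 9874 bases and its coding sequence 1464. By coding sequence, a length chosen after seeing the data, HDAC2 came second at 6569 ± 203 per kb in untreated cells and 4513 ± 455 at 48 h, after HDAC1 with 7380 ± 199 and 4608 ± 160 (SD, n = 3). At 48 h this order was not settled, since these means differed by less than the SD of either gene. At 24 h HDAC2 had the higher mean by this length. By the median length of the annotated transcripts HDAC2 came before HDAC1 in each group. HDAC1 was first or second by each of these lengths.

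Class I made up 84.8 ± 0.490% of the summed level per kb in untreated cells, with 79.5 ± 1.95% at 8 h, then 72.4 ± 2.50% at 24 h and 70.4 ± 1.60% at 48 h (SD, n = 3). Class IIa made up 9.26, 12.7, 17.6 and 15.7%, class IIb 5.30, 7.41, 9.44 and 13.3%, and class IV 0.659, 0.458, 0.539 and 0.506% in the same order. The share of HDAC6 alone was 7.54 ± 0.266% at 48 h and 2.28 ± 0.360% in untreated cells. By the longest protein-coding transcript and with the scaling reported, the summed level of the family was 9683 ± 212 per kb in untreated cells. It was 9724 ± 220 at 8 h, 8733 ± 560 at 24 h and 9502 ± 168 at 48 h. By this length the shares moved, while the sums at 48 h and in untreated cells differed by about the spread between replicates. The sum by other lengths or scalings was not computed.

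**Figure D3:**
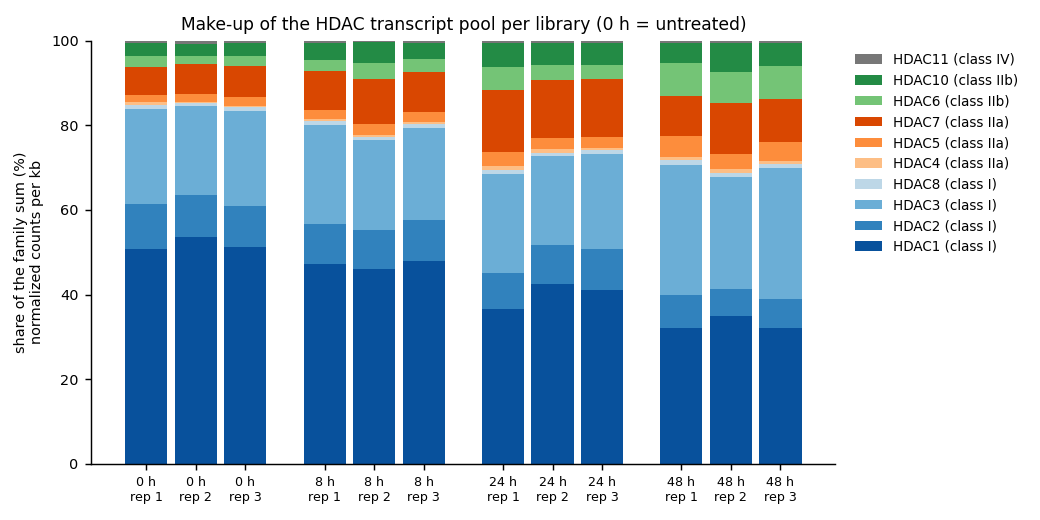
Share of each HDAC gene in the family's summed normalized counts per kb (longest protein-coding transcript) in each library, in percent, with 0 h for untreated cells; blue is class I, orange IIa, green IIb and grey IV. The class I part is 84.2 to 85.2% in the untreated libraries and 68.7 to 71.8% at 48 h.

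Ratios within a library hardly change when each library is scaled by 1 factor, and 4 were set up between members of 1 class. Quantile normalization can change such ratios, and they were not computed with it. The log2 ratio of HDAC7 to HDAC5 was 1.54, 1.56 and 1.5 in untreated cells, 1.76, 1.59 and 1.71 at 8 h, 1.78, 1.99 and 2.00 at 24 h, and 0.56, 1.29 and 0.88 at 48 h. It was high up to 24 h and lowest in all 3 libraries of 48 h, and it varied over the groups with p = 6.49e-05, the smallest that the exact permutation test over 12 libraries can give (adjusted over 4 ratios p = 0.00026). The log2 ratio of HDAC6 to HDAC10 was 0.39, 0.02 and 0.28 in untreated cells, 0.00, 0.33 and 0.25 at 8 h, 0.59, -0.03 and -0.06 at 24 h, and 1.32, 0.69 and 1.13 at 48 h. The 48 h libraries were above the others, with replicate 1 of 24 h the nearest to them (exact permutation p = 0.0215, adjusted 0.043). This call was lost when any single library other than replicate 1 of 24 h or replicate 2 of 48 h was left out, with adjusted p of 0.0632 to 0.0886 by the exact permutation test.

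The log2 ratio of HDAC1 to HDAC2 averaged 0.02 ± 0.19 at 48 h and 0.15 ± 0.08 in untreated cells (SD, n = 3), and it did not pass the exact permutation test (adjusted p = 0.201). Without replicate 2 of 48 h it did, with a difference of -0.24 between 48 h and untreated cells (adjusted p = 0.0217, exact permutation). The log2 ratio of HDAC4 to HDAC5 averaged -1.66 ± 0.30 at 48 h and -1.24 ± 0.22 in untreated cells (SD, n = 3, adjusted p = 0.207, exact permutation).

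**Figure D4:**
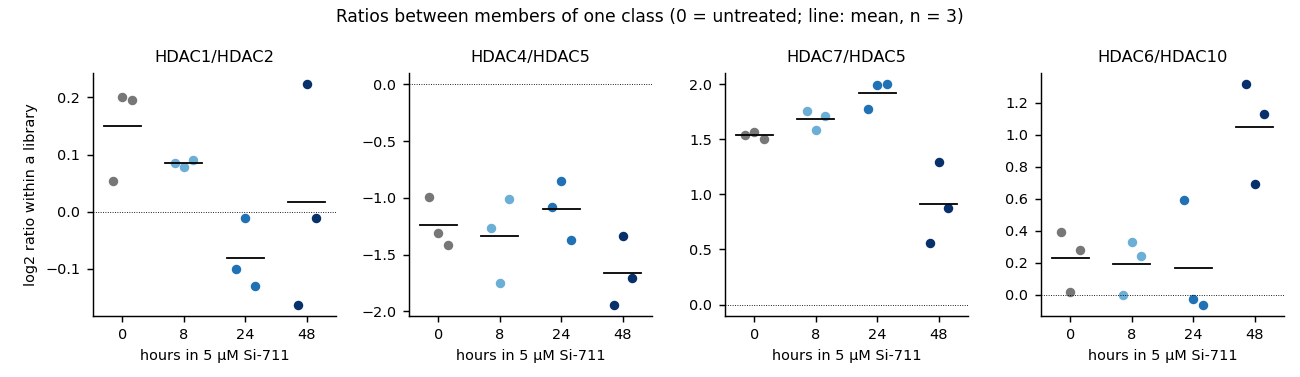
Log2 ratio of normalized counts within a library for 4 pairs of HDAC genes of the same class, by hours in 5 µM Si-711 (0 for untreated cells); points are libraries and lines are means of 3. HDAC7/HDAC5 is lowest and HDAC6/HDAC10 highest at 48 h, and HDAC4/HDAC5 overlaps across the groups. HDAC1/HDAC2 at 24 h lies below the untreated and 8 h libraries, and its 48 h libraries overlap all other groups.

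The subunits of the complexes that hold HDAC1 and HDAC2 went both ways. Of all genes tested, 13% were higher and 15.2% lower at 8 h, 22.9% and 24.7% at 24 h, and 32.3% and 33.8% at 48 h. A list here or below whose share is near these is no result about its genes. Shares of all genes at an unadjusted p under 0.05 were not computed. Of 17 SIN3 complex genes, 1 rose and 3 fell at 8 h (2 and 0 with equal totals), 1 and 5 at 24 h (3 and 2 with equal totals), and 7 and 8 at 48 h. At 48 h the chromatin-binding subunits ARID4A and ARID4B rose to 3067 ± 379 and 6320 ± 1208 normalized counts, against 470 ± 37.0 and 1610 ± 124 in untreated cells (SD, n = 3; log2 2.70 and 1.96, limma adjusted p = 2.08e-09 and 1.87e-07). The scaffold SIN3A fell to 1557 ± 121, against 3328 ± 110 in untreated cells (log2 -1.10, adjusted p = 8.44e-08, limma).

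Of 12 NuRD genes, 1 rose and 5 fell at 8 h (2 and 1 with equal totals), 1 and 8 at 24 h, and 4 and 6 at 48 h. The methyl-CpG-binding-domain subunit MBD3 fell to 612 ± 151 normalized counts at 48 h, against 5276 ± 330 in untreated cells (log2 -3.13, adjusted p = 6e-09, limma). The remodelling ATPase CHD4 fell to 886 ± 150 at 48 h, against 6884 ± 501 in untreated cells (SD, n = 3; log2 -2.97, adjusted p = 3.82e-06, limma), with 3211 ± 1728 at 24 h, where replicates were far apart. MTA3, an MTA-family subunit of NuRD, rose to 3909 ± 627, against 1539 ± 65.6 in untreated cells (log2 1.33, adjusted p = 2.55e-07, limma).

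Of 15 genes of the CoREST complex and its GFI1 recruiters, 3 rose and 1 fell at 8 h, 5 and 2 at 24 h, and 8 and 5 at 48 h. Equal totals gave 6 and 1 at 8 h and 7 and 1 at 24 h. Median centring gave 1 and 2 at 8 h and 5 and 4 at 24 h, so the balance at 8 h turned. GFI1, a DNA-binding repressor of myeloid cells, rose to 280 ± 36.6, 425 ± 83.2 and 284 ± 55.6 normalized counts at 8, 24 and 48 h, against 60.5 ± 6.97 in untreated cells (log2 2.19, 2.78 and 2.20). Its erythroid paralog GFI1B fell to 2028 ± 150, 1465 ± 353 and 763 ± 190, against 3393 ± 272 in untreated cells (log2 -0.74, -1.24 and -2.18; adjusted p = 0.00926, 0.000115 and 2.39e-07, limma). The histone-binding subunit PHF21A and the zinc finger subunit ZMYM2 rose to 3120 ± 217 and 4915 ± 334 at 48 h, against 600 ± 21.1 and 1142 ± 162 in untreated cells. Of the 3 MiDAC genes, TRERF1 rose at 8 and 24 h (calls lost with quantile normalization), and at 48 h DNTTIP1 rose (log2 0.59) and MIDEAS fell (log2 -0.61).

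Of 7 genes tested from the NCOR and SMRT complexes, the partners of HDAC3, 0 were called at 8 h, 1 (CORO2A, a WD40 protein) rose at 24 h, and 4 rose and 2 fell at 48 h. With median centring CORO2A lost its call (0.19, adjusted p = 0.0812, limma), and 0 genes were higher and 2 lower at 24 h. At 8 h, 1 was higher and 1 lower at an unadjusted p under 0.05 by limma. NCOR1, the scaffold, rose to 6818 ± 1233 normalized counts at 48 h, against 3265 ± 454 in untreated cells (log2 1.05, adjusted p = 0.000197, limma). The WD40 subunit TBL1XR1 rose (log2 1.55) and its paralog TBL1X fell (log2 -0.95). Of 8 subunits of the chaperonin that folds HDAC3 before its assembly, 0 rose and 7 fell at 8 h, 0 and 8 at 24 h, and 2 and 4 at 48 h. TCP1 had 11821 ± 1543 normalized counts at 48 h and 28251 ± 847 in untreated cells, and CCT8 was among the members that rose at 48 h (log2 0.60). At 8 h the count of falls among these subunits depended on scaling, with 2 under equal totals and 1 under quantile normalization, and none rose under either; by unadjusted p under 0.05 (limma) 0 were higher at 8 h.

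Around the class IIa genes, 22 of 26 partners, kinases and 14-3-3 genes passed the filter; 3 rose and 4 fell at 8 h (4 and 2 with equal totals), 4 and 11 at 24 h (6 and 6 with equal totals), and 9 and 9 at 48 h. MEF2C, a transcription factor that class IIa proteins repress, rose to 1898 ± 640, 1566 ± 125 and 2267 ± 207 normalized counts at 8, 24 and 48 h, against 718 ± 118 in untreated cells (log2 1.36, 1.13 and 1.67; adjusted p = 0.000251, 0.000269 and 3.55e-06, limma). The kinases MARK2 and PRKD3, of families that phosphorylate class IIa proteins, fell to 705 ± 84.9 and 784 ± 55.6 at 48 h, against 2031 ± 56.6 and 2076 ± 263 in untreated cells (log2 -1.53 and -1.40). Of 12 known MEF2 target genes tested, 1 rose and 1 fell at 8 h, 1 and 2 at 24 h (3 and 2 with equal totals), and 2 and 5 at 48 h. JUN rose to 3744 ± 131 at 48 h, against 362 ± 44.6 in untreated cells (log2 3.37), and EGR1 fell to 400 ± 152, against 2919 ± 118 (log2 -2.93, adjusted p = 1.35e-06, limma).

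Genes for substrates and partners of HDAC6, tubulins among them, were called lower more often than higher under each scaling tried. With the scaling reported, the lower calls over all genes too outnumbered the higher ones at each time, though not with equal totals at 8 and 24 h. Of 17 tested, 0 rose and 10 fell at 8 h (0 and 11 at an unadjusted p under 0.05 by limma), 3 and 13 at 24 h, and 6 and 10 at 48 h. The β-tubulin TUBB4B fell to 12299 ± 334, 7879 ± 191 and 3941 ± 260 normalized counts at 8, 24 and 48 h, against 18900 ± 275 in untreated cells (log2 -0.62, -1.26 and -2.26), and the α-tubulin TUBA1C fell by 1.71 on the log2 scale at 48 h. The tubulins did not all fall: another α-tubulin, TUBA1A, was called higher at 24 h (log2 1.05, with 0.91 to 1.23 over the scalings tried). The chaperone HSP90AA1, an HDAC6 substrate, fell to 25063 ± 1988 at 24 h, against 61224 ± 1734 in untreated cells (log2 -1.29, adjusted p = 9.22e-07, limma). DYNC1H1, the dynein heavy chain, rose to 1194 ± 138 at 48 h, against 129 ± 45.1 in untreated cells (log2 3.26, adjusted p = 1.64e-06, limma).

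Of 12 genes of polyamine metabolism, where HDAC10 acts, 2 rose and 3 fell at 8 h (3 and 2 with equal totals), 2 and 4 at 24 h (3 and 3 with equal totals), and 3 and 4 at 48 h. SAT1, the acetyltransferase of polyamines, rose to 1836 ± 65.9, 4820 ± 1481 and 17803 ± 1043 normalized counts at 8, 24 and 48 h, against 1029 ± 82.3 in untreated cells (log2 0.84, 2.19 and 4.11). The synthetic enzymes ODC1 and AMD1 fell at 48 h (log2 -2.21 and -3.25, adjusted p = 2.73e-08 and 1.48e-09, limma). Of 7 kinases that make the inositol phosphates found in class I complexes, 0 rose and 2 fell at 8 h (1 and 2 at an unadjusted p under 0.05 by limma, and 2 and 1 called with equal totals), 2 and 2 at 24 h, and 1 and 2 at 48 h. Of 8 bromodomain genes, whose proteins read acetylated histones, 1 rose and 1 fell at 8 h (2 and 0 with equal totals), 1 and 6 at 24 h (1 and 2 with equal totals), and 3 and 2 at 48 h. At 48 h BRD2 fell to 260 ± 83.3, against 1684 ± 45.1 in untreated cells (SD, n = 3; log2 -2.75, adjusted p = 1.4e-06, limma).

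The median log2 change at 48 h was -0.03 for the SIN3 list, -0.36 for NuRD, 0.36 for CoREST and GFI1, 0.75 for NCOR and SMRT, -1.52 for MEF2 targets, -0.43 for HDAC6 substrates and partners and 0.20 for polyamine enzymes, beside -0.05 over all genes tested. No gene of these lists named for 48 h lost its call under equal totals, median centring or quantile normalization. The lists were chosen with earlier results of these data known, and no test of a list as a whole was run.

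**Figure D5:**
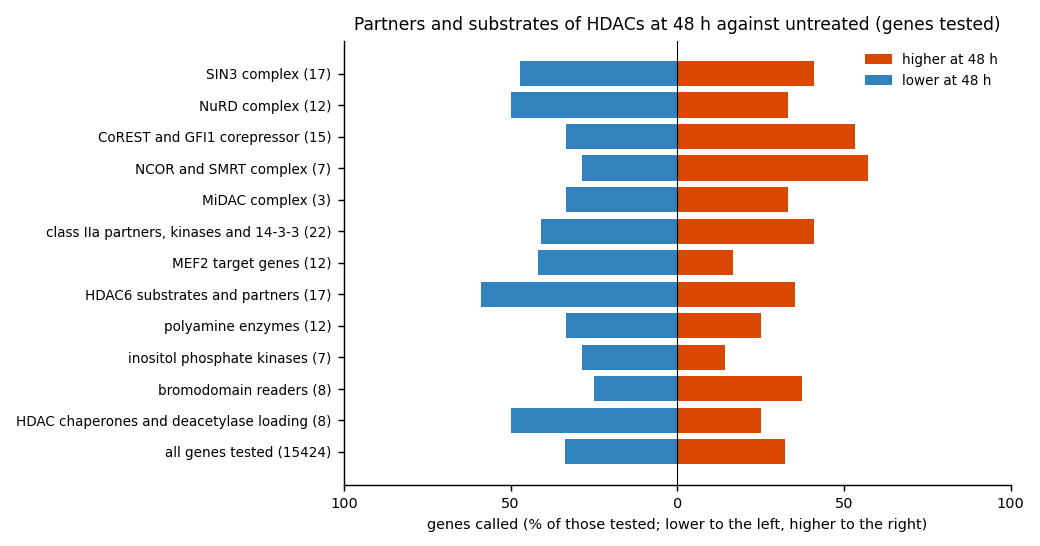
Share of the tested genes of each list, in percent, that were called higher (orange, to the right) or lower (blue, to the left) at 48 h against untreated cells, with the number tested in brackets and all 15424 genes in the lowest bar. Lists of HDAC complexes hold genes of both directions, and 10 of the 17 genes tested from the HDAC6 list were lower.

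For each HDAC gene that passed the F-test, the genes outside the family with the highest Pearson's r over the 12 libraries (log2 scale, mean of at least 100 normalized counts) were named as a description; the points share the differences between the 4 groups. HDAC1 was most like SLC38A7 (r = 0.991) and SLC38A5 (0.985), both amino acid transporters of the same family, and HDAC2 like CAPZA2 (0.994) and RAB5C (0.979). HDAC3 was most like FAF1 (0.968) and LEPROTL1 (0.963), HDAC4 like ELP4 (0.948) and ADD3 (0.934), and HDAC5 like CHCHD5 (0.986). HDAC6 was most like ZMYM2 (0.983), the CoREST subunit described above, and AAK1 (0.982). HDAC7 was most like GABRE (0.982) and SERPINH1 (0.978), and HDAC10 like FOLR1 (0.974) and ARHGAP4 (0.973).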

How the data were processed

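Polyadenylated RNA of 12 K-562 libraries was measured as a deposited table of gene-level signal, namely counts that the authors normalized with DESeq2 after trimming with cutadapt and quantification with Salmon on GRCh38, per the submitters' processing notes, which give no versions. The annotation release and the strand setting are not given in the sources used here. Whole reads could not be recovered: 36.7 to 66.7% of low values lay within 0.1 of a whole multiple of the value of 1 read, so no method for counts was run. That value was taken as the most common of the lowest values in a library, so all read numbers given are estimates. Salmon assigns reads shared by similar transcripts by an estimate; the HDAC1 pseudogenes HDAC1P1 and HDAC1P2 were listed at 0 in every library.

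Symbols came from a gene name table (50026 identifiers) and GENCODE release 29 (267), which also gave coordinates and transcript lengths. Genes with at least 10 in at least 3 libraries (15424) were fitted as log2(value + 1) in 1 limma (3.58.1, R 4.3.3) fit over the 4 groups. The prior variance followed the mean and had 5.08 degrees of freedom. In data simulated for 8 h against untreated cells, the fit called 25% of 100 genes changed by 0.5 on the log2 scale. It called 50% of 100 genes changed by 1, with 1 false call. A change that did not pass is therefore not shown to be absent. Tests were two-sided, with Benjamini-Hochberg adjustment over all genes tested and a threshold of 0.05. Ratios were compared by an exact permutation test over all assignments of 12 libraries to 4 groups. Alternatives were the added value, the filter, the scaling, the samples fitted, a robust prior, a replicate block, a threshold of 0.01, each library left out in turn, and other lengths.

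All 10 members were named. From the other lists, up to 4 genes per comparison with untreated cells that passed with the largest changes and a mean of at least 50 could be named, and the 2 nearest genes by Pearson's r with a mean of at least 100 for each member past the F-test; an identifier without a symbol is not named. GPS2 and CTTN were not analysed here, nor was a further class IIa gene of the family. The members and lists were chosen with earlier results of these data known.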

Additional observations from a re-analysis of the deposited data

Results flagged for a closer look

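The change against untreated cells differed between times for 8 of the HDAC genes by limma's direct comparison of the times, which is the reason each is given here. Of all genes tested, 18.1% were called between 24 and 8 h, 52.2% between 48 and 24 h and 62% between 48 and 8 h. The share called in at least 1 of these comparisons was not computed, so the 8 genes are no result about the family. HDAC1 was lower at 24 h than at 8 h by -0.39 on the log2 scale (adjusted p = 0.0105, limma), and HDAC7 was higher by 0.36 (adjusted p = 0.0146). Between 48 and 24 h the differences were -0.25 for HDAC2, 0.51 for HDAC3, 0.73 for HDAC5, 1.07 for HDAC6 and -0.29 for HDAC7, with the adjusted p values of the report. Between 48 and 8 h HDAC1 differed by -0.54 (adjusted p = 0.000133), HDAC2 by -0.47 (adjusted p = 0.000632), HDAC3 by 0.37 (adjusted p = 0.00232), HDAC4 by 0.53 (adjusted p = 0.0142), HDAC5 by 0.85 (adjusted p = 5.23e-05), HDAC6 by 1.25 (adjusted p = 3.54e-05) and HDAC10 by 0.39 (adjusted p = 0.0162, limma). Groups of 3 libraries were too small for the test of a single far library.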

How the results depend on the processing

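At 48 h against untreated cells the 8 calls kept their direction and their side of the threshold under each alternative run and each library left out. At 8 h the count of 2 became 4 with equal totals and 1 with a threshold of 0.01, and ranged from 1 to 3 with a library left out (1 without replicate 2 of 8 h). It ranged from 6 to 7 at 24 h. For 24 against 8 h the 2 calls became 0 with a threshold of 0.01, where limma gave 2 genes higher and 2 lower at an unadjusted p under 0.05, and ranged from 1 to 3 with a library left out. For 48 against 24 h the 5 became 3 with a threshold of 0.01 and ranged from 3 to 6 (3 without replicate 2 of 24 h), and for 48 against 8 h from 6 to 7. Calls over all 15424 genes at a threshold of 0.01 or at an unadjusted p under 0.05 were not computed. The member counts at these thresholds are therefore no result about the HDAC genes. Calls over all genes moved too with the scaling and with a library left out. At 8 h they were 4347 as reported, 3970 with equal totals and 2930 to 4662 with a library left out. With a library left out they were 6373 to 7650 at 24 h and 1397 to 3144 for 24 against 8 h. For 48 against 24 h they were 7018 to 8047, and for 48 against 8 h 8707 to 9605. A call turned round or appeared with the opposite sign in 2 cases: HDAC2 at 24 h with quantile normalization (0.0061, not called) and HDAC7 between 48 and 8 h, which was -0.28 with equal totals (adjusted p = 0.0304, limma). The sign also turned, with no call on either side, with equal totals for HDAC1 (0.03) and HDAC2 (0.09) at 8 h, HDAC3 (0.06) and HDAC8 (0.05) at 24 h. Equal totals turned HDAC4 (-0.21), HDAC10 (-0.18) and HDAC11 (-0.33) between 48 and 24 h, and HDAC8 (-0.10) and HDAC11 (-0.24) between 48 and 8 h. Quantile normalization turned HDAC1 (0.08), HDAC2 (0.13) and HDAC8 (-0.12) at 8 h and HDAC3 at 24 h (0.14). It also turned HDAC11 between 24 and 8 h (-0.05) and HDAC7 between 48 and 8 h (-0.10). Median centring turned HDAC1 between 48 and 24 h (0.04) and HDAC3 (-0.07) and HDAC8 (-0.08) at 8 h. With single libraries left out, uncalled changes of HDAC3, HDAC4, HDAC6, HDAC8 and HDAC11 near 0 turned sign as well. With equal totals HDAC3 lost its calls at 48 against 24 and 8 h, and HDAC4 and HDAC10 theirs at 48 against 8 h. Between 48 and 24 h HDAC2 lost its call without 7 single libraries (untreated 1 and 2, replicate 3 of 8 h, 2 and 3 of 24 h, 2 and 3 of 48 h). HDAC1 was called there without replicate 1 of 24 h (-0.27), HDAC8 without untreated 2, 24 h replicate 3 or 48 h replicate 2 (up to 0.48), and HDAC4 at 24 against 8 h without 24 h replicate 3 (0.55). Between 48 and 8 h HDAC4 lost its call without 8 h replicate 2 (0.42), and HDAC10 without 8 h replicate 3 (0.32) or 48 h replicate 2 (0.26). At 8 h HDAC5 was also called without 48 h replicate 1 or 2, and HDAC6 without 24 h replicate 1. The cause was not tested.

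Equal totals moved the median log2 change of all genes to 0.14, 0.20 and -0.24 at 8, 24 and 48 h, and median centring to -0.10, -0.12 and 0.01, against -0.01, 0.02 and -0.05 as reported. The labels do not give whether a replicate number marks a shared culture or day. Deviations of same-numbered libraries correlated at -0.07 to 0.14 over 18 pairs and of others at -0.16 to 0.11 over 36, so the ranges overlapped and do not settle it. Over all genes, limma with this block called 4554, 7515 and 10286 at 8, 24 and 48 h against untreated cells. Without the block these were 4347, 7343 and 10207. With the replicate number as a block, HDAC2 lost its call between 48 and 24 h (adjusted p = 0.0501, limma), HDAC8 gained one there (0.39, adjusted p = 0.0228), and HDAC6 to HDAC10 kept its difference of 0.81 but missed the threshold (adjusted p = 0.115, exact permutation). With a library left out the 48 h difference in log2 ratio ranged from -0.24 to -0.044 for HDAC1 to HDAC2, -0.58 to -0.28 for HDAC4 to HDAC5, -0.82 to -0.45 for HDAC7 to HDAC5 and 0.68 to 0.99 for HDAC6 to HDAC10. The class I share was 81.7, 75.7, 67.9 and 63.9% in untreated, 8, 24 and 48 h cells by median transcript length, and 89.1, 85.5, 80.2 and 77.9% by coding sequence, a choice made after seeing the data. HDAC11 rested on the fewest reads of the family, an estimated 107 to 203 per library. The values used are normalized, so no counting interval is given.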

Other observations

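Over the 12 libraries the log2 values of HDAC1 and HDAC2 correlated at r = 0.91 and those of HDAC5 and HDAC6 at r = 0.96, while HDAC1 and HDAC6 correlated at r = -0.87. HDAC7 and HDAC10 correlated at r = 0.85, and HDAC7 and HDAC3 at r = -0.09. The libraries share the differences between the 4 groups.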
